A study of Hebeloma cylindrosporum with 4 samples.

Results

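Among the gene models of Hebeloma cylindrosporum, a basidiomycete that forms ectomycorrhizas with pines, 146 of 15382 were already transcribed in free-living mycelium and stood at least 10 times higher in ectomycorrhizas. They were chosen on RPKM, the reads of a gene model divided by its transcript length and by the gene reads of the same library. A gene model was taken if its RPKM was 1 or more in both mycelium libraries, if its lower ectomycorrhiza RPKM was at least 10 times its higher mycelium RPKM, and if at least 50% of its reads over the 4 libraries matched no other gene model. These values chose the gene models, so the height of the difference is described below and is not tested. The limit of 1 RPKM in mycelium was met by 11451 gene models, and the 146 were 1.27% of them. They are called the raised gene models here, and the 11451 the mycelium-transcribed gene models.

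The ectomycorrhizas, 2 libraries, were root tips of maritime pine (Pinus pinaster) whose seedlings were 20 days old when inoculated and then grew in a greenhouse, in 0.5-litre pots of sterilized peat soil with 80% organic matter. The free-living mycelium, 2 libraries, was a pure culture of 6 days on cellophane over Melin-Norkrans agar with 0.5 g per litre of fructose. The fungus was the wild-type diploid strain TV98 IV3. The groups therefore differ in the presence of pine, in medium, in site and perhaps in age, and these cannot be told apart. The series text calls the libraries of a group biological replicates without naming plants, pots or cultures, so the spread given here is that between libraries and may be technical.

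An ectomycorrhiza is a joint organ in which hyphae wrap a fine root in a mantle and grow between its outer cells as the Hartig net. Sugar passes there from plant to fungus, and nitrogen, phosphorus and water pass the other way. Building it involves changes in fungal walls, secreted proteins and membrane transporters in the species studied so far. The tables used here pair no gene model with a name or product, so none of the raised gene models can be assigned to such a class, and they are described by level, size of difference, transcript length and agreement between libraries. Identifiers are given for 2 of them and the others are named by rank.

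The ectomycorrhiza libraries held 4748150 and 3967725 gene reads, and the mycelium libraries 17774509 and 19341938. For a transcript of 1000 bp, 1 read corresponded to 0.211 and 0.252 RPKM in ectomycorrhiza and to 0.0563 and 0.0517 RPKM in mycelium. The raised gene models had 37 to 81252 reads in each ectomycorrhiza library and 13 to 12896 in each mycelium library, so none was at 0 reads anywhere. In 36 of the 146 a mycelium library held under 50 reads. RNA of whole root tips does not separate hyphae of the mantle from those of the Hartig net, and more cells of one kind and more RNA per cell cannot be told apart.

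As a whole, the raised gene models were a minor part of the mycelium transcriptome and a sizeable part of the ectomycorrhiza transcriptome. In the ectomycorrhiza libraries they took 13.6% and 11.8% of the reads, with exact 95% Clopper-Pearson intervals of 13.61 to 13.67 and of 11.75 to 11.82. In the mycelium libraries they took 0.324% and 0.306%, with intervals of 0.3216 to 0.3269 and of 0.3032 to 0.3081. The means were 12.7% ± 1.31 in ectomycorrhiza and 0.315% ± 0.0131 in mycelium (SD, n = 2 each). Summed RPKM, which removes transcript length, gave 12.6% and 12.2% in ectomycorrhiza and 0.249% and 0.222% in mycelium. The intervals cover counting error only, and the gap between the groups follows from the choice of gene models.

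The typical raised gene model was modestly transcribed in mycelium. The median over the 146 was 241 and 194 RPKM in the ectomycorrhiza libraries, against 6.13 and 6.06 RPKM in the mycelium libraries. Over all mycelium-transcribed gene models the medians were 9.76 and 10.4 RPKM in ectomycorrhiza and 22.9 and 20.7 RPKM in mycelium. In mycelium, 132 of the 146 were below the median of the mycelium-transcribed gene models, and 2 of them were among the 1000 highest gene models. In ectomycorrhiza, 104 were among the 1000 highest, 21 among the 100 highest and 3 among the 10 highest. Of those 21, 19 were outside the 1000 highest in mycelium.

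**Figure D1:**
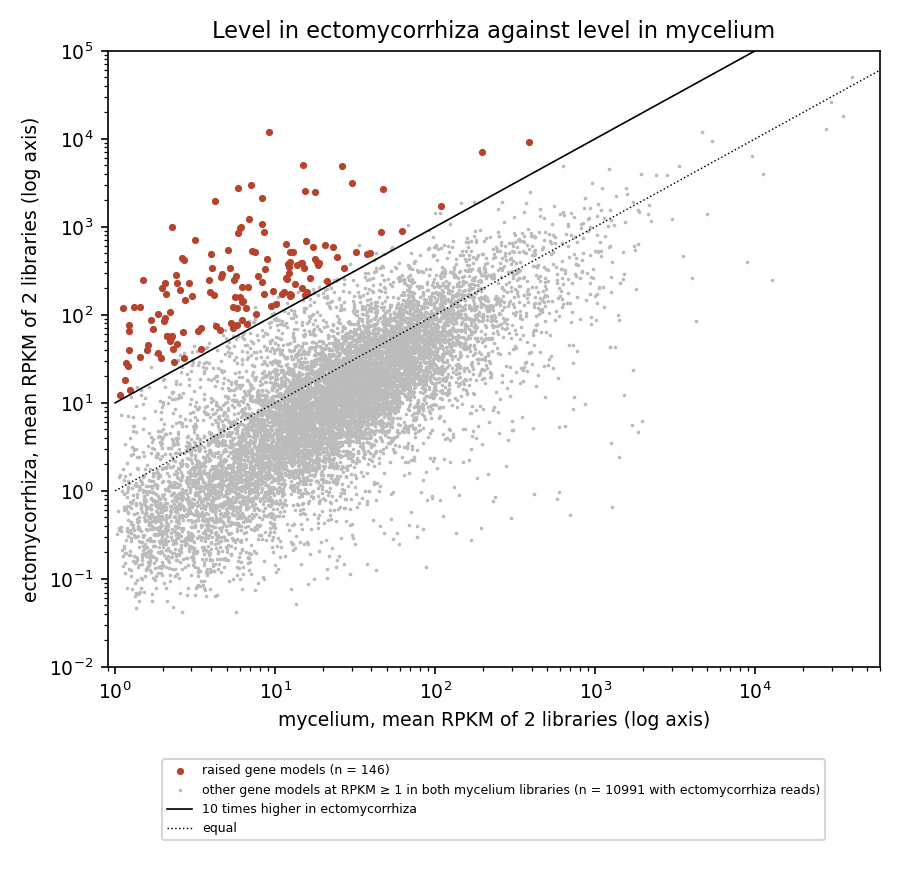
Mean RPKM in ectomycorrhiza (vertical) against mean RPKM in mycelium (horizontal), both on log axes, for the 146 raised gene models and the other mycelium-transcribed gene models with ectomycorrhiza reads. The raised gene models lie above the 10-fold line by choice, and most of them lie to the left, at mycelium levels below the bulk of the grey points; grey points above the line reach 10-fold by means but not by their lower ectomycorrhiza and higher mycelium library.

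The raised gene model with the highest level in ectomycorrhiza was 31369, with a transcript of 810 bp. It had 13548 and 10348 RPKM in ectomycorrhiza (52105 and 33258 reads), against 9.17 and 9.06 RPKM in mycelium (132 and 142 reads). All reads of 31369 were unique to it. It stood at rank 6 of all gene models in ectomycorrhiza and at rank 8402 in mycelium, and took 1.10% and 0.838% of the ectomycorrhiza reads. Its lower ectomycorrhiza level was 1129 times its higher mycelium level, with an exact 95% interval for counting error of 951 to 1349. The log2 fold change fitted by edgeR with TMM scaling was 11.32 (SE 0.44). Its mycelium libraries were close to each other, at a ratio of 1.01 between the higher and the lower, and its ectomycorrhiza libraries were 1.31 times apart.

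The second largest ratio belonged to 30166, with a transcript of 1416 bp. It had 2608 and 2931 RPKM in ectomycorrhiza (17533 and 16465 reads), against 5.76 and 5.95 RPKM in mycelium (145 and 163 reads). Its lower ectomycorrhiza level was 438 times its higher mycelium level (interval 376 to 514), and its fitted log2 fold change was 9.83 (SE 0.34). It rested on libraries that lay close together in both groups, 1.12 times apart in ectomycorrhiza and 1.03 times in mycelium. The ratios of 31369 and 30166 have intervals that do not meet, as counting error goes.

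Ranks 3 to 5 by ratio followed closely behind 30166. The gene model at rank 3, of 870 bp, had 2266 and 1663 RPKM in ectomycorrhiza and 4.72 and 3.68 in mycelium, a ratio of 352 (interval 280 to 450). The one at rank 4, of 1530 bp, had 1083 and 910 RPKM in ectomycorrhiza and 1.84 and 2.67 in mycelium, a ratio of 341 (interval 273 to 431). The one at rank 5, of 962 bp, had 3268 and 2663 RPKM in ectomycorrhiza and 5.61 and 8.49 in mycelium, a ratio of 314 (interval 268 to 369). The intervals of ranks 3 to 5 overlap, and so do those of 30166 and ranks 3 and 4, so these orders are not settled at this depth. As counting error goes, 30166 stands clear of rank 5, and 31369 of all 4.

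The next places by level in ectomycorrhiza were held by gene models that differed widely in mycelium. The second, of 1688 bp, had 10138 and 8116 RPKM in ectomycorrhiza and 430 and 344 RPKM in mycelium, the highest mycelium level of the 146, and its ratio was 18.9. The third, of 1042 bp, had 5928 and 8405 RPKM in ectomycorrhiza and 172 and 222 RPKM in mycelium, with a ratio of 26.7. In the second, replicate 1 was the higher in both groups, and in the third, replicate 2 was. The 2 gene models share a high level in ectomycorrhiza with 31369 and start from mycelium levels more than 10 times that of 31369.

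Rank 4, of 1050 bp, had 5844 and 4328 RPKM in ectomycorrhiza against 16.1 and 13.7 RPKM in mycelium. Rank 5, of 1767 bp, had 5931 and 3828 RPKM in ectomycorrhiza against 23.4 and 29.0 RPKM in mycelium. Rank 6, of 2036 bp, had 2600 and 3649 RPKM in ectomycorrhiza against 31.8 and 29.1 RPKM in mycelium. Their ratios were 269, 132 and 81.8. Mean ectomycorrhiza levels at ranks 4 and 5, 5086 ± 1072 and 4880 ± 1487 RPKM (SD, n = 2), lay within the spread of each other. From rank 6 at 3124 ± 742 RPKM to rank 10 at 2524 ± 1203 RPKM, each mean lay within 1 SD of its neighbour in the order, though ranks 6 and 10 were both outside the narrower spread of 30166 at rank 8, 2769 ± 228 RPKM (SD, n = 2).

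The gene models at ranks 9 and 10 were those in which the ectomycorrhiza libraries disagreed most among these 10. The one at rank 9, of 1120 bp, had 3629 and 1787 RPKM in ectomycorrhiza and 48.7 and 46.4 in mycelium. The one at rank 10, of 396 bp, the shortest transcript of the 146, had 3374 and 1673 RPKM in ectomycorrhiza and 19.3 and 11.5 in mycelium. In both, replicate 1 was 2.03 and 2.02 times replicate 2 in ectomycorrhiza, and the lowest ectomycorrhiza value was still 36.7 and 86.6 times the highest mycelium value.

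**Figure D2:**
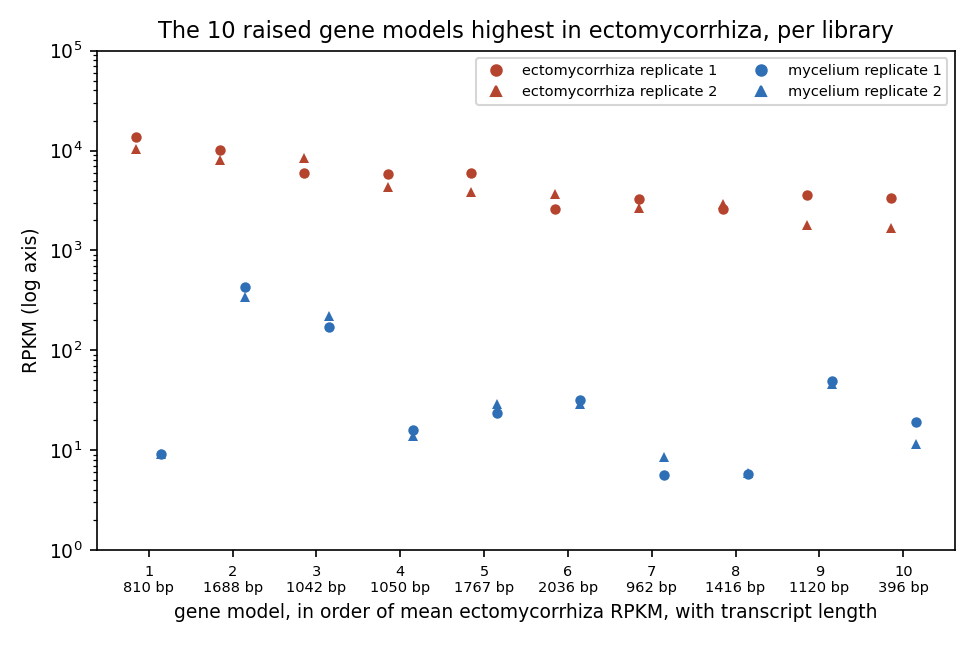
RPKM on a log axis in each of the 4 libraries for the 10 raised gene models with the highest mean ectomycorrhiza RPKM, numbered by rank and labelled with transcript length; ectomycorrhiza points stand left of mycelium points. Ectomycorrhiza values run from 1673 to 13548 RPKM in all 10, while mycelium values spread from 5.61 to 430 RPKM.

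A few gene models carried much of the set's level. The 10 highest in ectomycorrhiza held 54.0% and 53.9% of the set's summed RPKM in the ectomycorrhiza libraries, against 37.4% and 36.6% in the mycelium libraries. Gene model 31369 alone held 12.9% and 11.7% of it in ectomycorrhiza, and 0.450% and 0.461% in mycelium. The number of gene models that held 50% of the set's summed RPKM was 9 in each ectomycorrhiza library and 10 and 12 in the mycelium libraries. Without the 10 highest, the remaining gene models took 6.80% and 5.89% of the ectomycorrhiza reads and 0.213% and 0.204% of the mycelium reads.

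Sorted by mean mycelium level, the raised gene models were divided into 4 tiers. The lowest tier, at 1 to under 3 RPKM in mycelium, had 44 gene models with a median of 67.2 RPKM in ectomycorrhiza (range 12.3 to 997) and 2.04 in mycelium, and a median ratio of 31.7. The next, at 3 to under 10 RPKM in mycelium, had 53 with a median of 235 RPKM in ectomycorrhiza (range 41.0 to 11948) and 5.86 in mycelium, and a median ratio of 27.9; it includes both 31369 and 30166. The third, at 10 to under 50 RPKM, had 45 with medians of 388 RPKM in ectomycorrhiza and 15.4 in mycelium, and a median ratio of 18.7. The fourth, at 50 RPKM or more, had 4 gene models with medians of 4442 RPKM in ectomycorrhiza and 153 in mycelium, and ratios of 10.6 to 26.7.

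The share of mycelium-transcribed gene models that were raised became smaller from tier to tier. It was 44 of 1096 (4.01%) in the lowest tier, 53 of 2167 (2.45%) in the next, 45 of 5344 (0.842%) in the third and 4 of 2844 (0.141%) in the fourth. A 10-fold ratio demands a higher ectomycorrhiza level from a gene model that starts higher, and the tiers use the mycelium values of the rule, so these shares are a description. Along the set, mean levels in the 2 tissues went together across gene models (Pearson's r = 0.69 on log2 RPKM, Spearman's rho = 0.68, n = 146), which the lower limit on the ratio partly imposes. Gene models are not independent replicates.

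Only a few of the raised gene models were prominent in mycelium, and the third highest there, of 1805 bp, had 1668 and 1767 RPKM in ectomycorrhiza and 109 and 110 RPKM in mycelium. Its ratio was 15.2, and its libraries were 1.06 times apart in ectomycorrhiza and 1.01 times in mycelium. At the other end, the lowest raised gene model in both tissues, of 807 bp, had 13.0 and 11.6 RPKM in ectomycorrhiza (50 and 37 reads) and 1.05 and 1.09 RPKM in mycelium (15 and 17 reads). Its ratio of 10.6 had a counting interval of 5.83 to 20.1, so at this depth it cannot be placed on either side of the limit.

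The ratio of the lower ectomycorrhiza to the higher mycelium level ran from 10.0 to 1129, with a median of 23.2 and quartiles of 14.3 and 48.9. It was under 15 in 38 gene models, 15 to under 20 in 23, 20 to under 50 in 49, 50 to under 100 in 20, and 100 or more in 16. The counting interval lay wholly above 10 in 121 of the 146 and reached 10 or less in 25. Just inside the limit were gene models with ratios of 10.02, 10.07 and 10.15, and just outside it were 3 with ratios of 9.92, 9.97 and 9.998. The first one inside, of 1680 bp, had 198 and 161 RPKM in ectomycorrhiza and 16.0 and 15.8 in mycelium. The nearest one outside, of 1014 bp, had 39.9 and 30.1 RPKM in ectomycorrhiza and 2.11 and 3.01 in mycelium. The longest transcript of the set, of 3470 bp, was also just inside, with 515 and 486 RPKM in ectomycorrhiza and 47.8 and 31.0 in mycelium.

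**Figure D3:**
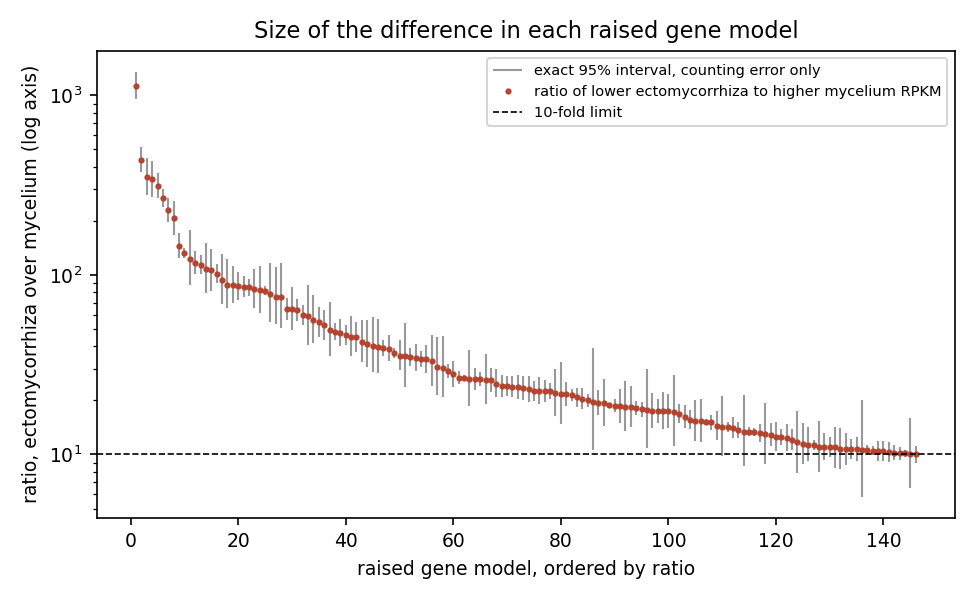
Ratio of the lower ectomycorrhiza to the higher mycelium RPKM on a log axis for each of the 146 raised gene models, in descending order, with exact 95% intervals for counting error and the 10-fold limit as a dashed line. One gene model stands at 1129, 16 are at 100 or more, and the intervals of 25 reach the limit or below.

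Fitted with edgeR on total gene reads, all 146 were called higher in ectomycorrhiza (quasi-likelihood test at a Benjamini-Hochberg adjusted p under 0.05, with 2 libraries a group), against 24.3% of the 11471 gene models tested. With a fitted fold of at least 10 as well, 146 were called against 4.59% of those tested. The rule used the same contrast, so nothing is read from these counts. The median log2 fold change was 5.78 over the 146 (range 4.40 to 11.32), beside -0.20 over all gene models tested. These folds are larger than the RPKM ratios, from which they differ in the values compared and in scaling. The fit compares group levels, and the rule the lower ectomycorrhiza with the higher mycelium RPKM. The median ratio was 23.2 by the rule and 28.4 by group means. TMM scaling, which sets most gene models near equal, raised ectomycorrhiza over mycelium by a factor of 2.15 in replicate 1 and 1.75 in replicate 2. RPKM carries a scaling by total gene reads only. With total counts alone the median over the 146 was 4.82, beside -1.15 over all tested.

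Leaving out 1 library changed few calls, and the choice of gene models fixes their direction. Without mycelium replicate 1 or replicate 2, all 146 were called, and without either ectomycorrhiza library 144 were. The 2 gene models that lost their call were the same in both cases, and both had mycelium libraries far apart. One, of 1287 bp, had 518 and 566 RPKM in ectomycorrhiza and 2.19 and 8.03 in mycelium. The other, of 2113 bp, had 218 and 155 RPKM in ectomycorrhiza and 4.10 and 15.2 in mycelium, the widest mycelium spread of the set at 3.71 times. Their edgeR log2 fold changes were 7.63 and 4.85 without ectomycorrhiza replicate 1, and 7.64 and 5.48 without replicate 2.

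Gene models were also picked in 1 ectomycorrhiza and 1 mycelium library and read in the other 2. By the rule, the 146 are at least 10 times higher in every such pair. They are therefore among those that held each time, so the shares are a description and no independent support for the 146. Picked at 10-fold in both replicate 1 libraries, 234 gene models were found, and 169 of them (72.2%) were at least 10 times higher in ectomycorrhiza in replicate 2 as well, against 1.75% of all gene models at 1 RPKM or more in that mycelium library. Picked in replicate 2, 203 were found, and 166 (81.8%) were 10 times higher in replicate 1, against 2.01%. With the numbers crossed, 170 of 226 (75.2%, against 1.69%) and 175 of 197 (88.8%, against 1.95%) held. At 5-fold, 94.9% to 98.5% of the picked gene models held in the libraries not used for picking, and all of them were higher in ectomycorrhiza there. The share was lower when ectomycorrhiza replicate 1 did the picking than when replicate 2 did.

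**Figure D4:**
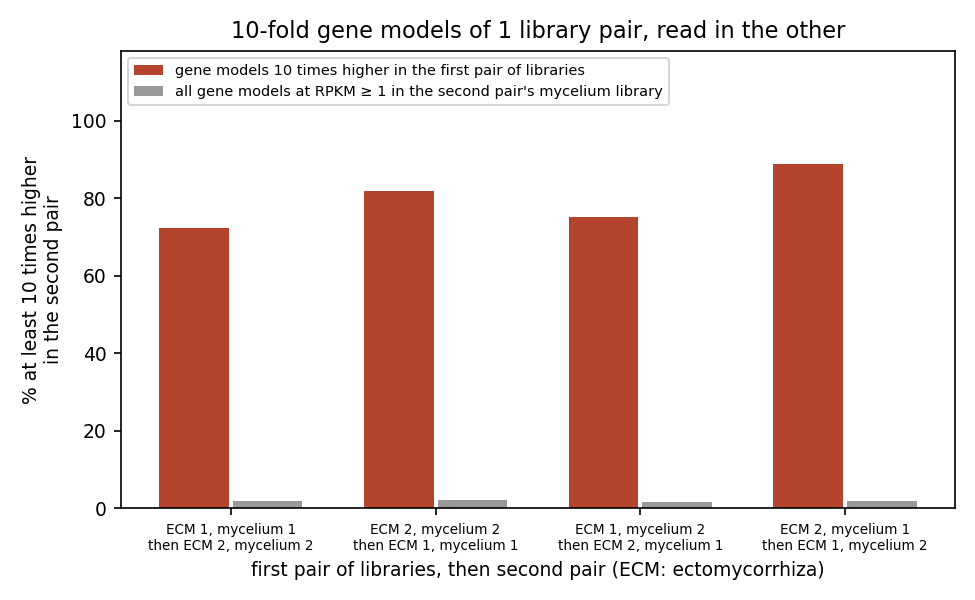
Share of gene models at least 10 times higher in ectomycorrhiza in the second pair of libraries (vertical, percent), for gene models at least 10 times higher in the first pair (red) and for all gene models at RPKM of 1 or more in the second pair's mycelium library (grey). The red bars stand at 72.2%, 81.8%, 75.2% and 88.8%, the grey bars at 1.75%, 2.01%, 1.69% and 1.95%. By the rule, the raised gene models are among those that hold in every pair.

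Agreement between libraries of a group was close in most raised gene models. The higher ectomycorrhiza library was a median of 1.23 times the lower, and the higher mycelium library 1.17 times the lower. Over the mycelium-transcribed gene models the median was 1.16 in mycelium, and over those with reads in both ectomycorrhiza libraries it was 1.41 in ectomycorrhiza. The ectomycorrhiza libraries were more than 2 times apart in 7 raised gene models (4.79%), against 20.3% of the mycelium-transcribed ones with reads in both. The mycelium libraries were more than 2 times apart in 6 (4.11%), against 1.85% of all mycelium-transcribed ones, and in none of the 146 were both groups. The rule reads the lower ectomycorrhiza and the higher mycelium library, and the raised gene models have many reads in ectomycorrhiza, so these spreads are not independent of the choice. Levels across the 146 correlated between the ectomycorrhiza libraries with Pearson's r = 0.98 on log2 RPKM (rho = 0.97) and between the mycelium libraries with r = 0.96 (rho = 0.94).

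The ectomycorrhiza library with the higher value was mostly replicate 1, in 107 of the 146 (73.3%), against 51.5% of the mycelium-transcribed gene models with reads in both. On the log2 scale, replicate 1 exceeded replicate 2 by a median of 0.20 in the raised gene models and of 0.03 in the mycelium-transcribed ones. The widest difference was in a gene model of 684 bp, with 262 and 101 RPKM in ectomycorrhiza and 4.61 and 3.25 in mycelium. The next, of 1032 bp, had 603 and 256 RPKM in ectomycorrhiza and 9.16 and 8.72 in mycelium, and the third, of 1526 bp, had 465 and 220 RPKM in ectomycorrhiza and 4.20 and 3.90 in mycelium. In all 3, replicate 1 was the higher in ectomycorrhiza, as it was in 6 of the 7 that were more than 2 times apart. In mycelium, replicate 1 was the higher in 90 of the 146 (61.6%), against 72.8% of the mycelium-transcribed gene models. Of the 6 with mycelium libraries more than 2 times apart, replicate 2 was the higher in 5.

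Transcript length moved with the difference between the ectomycorrhiza libraries. On the log2 scale the median of replicate 1 minus replicate 2 was 0.39 in the 36 raised gene models under 1000 bp, 0.24 in the 46 of 1000 to under 1500 bp, 0.19 in the 45 of 1500 to under 2000 bp, and 0.09 in the 19 of 2000 bp or more. In the mycelium-transcribed gene models the same classes had medians of 0.46, 0.22, -0.07 and -0.71. The sets differ in level, and at 2000 bp or more the lower ectomycorrhiza RPKM had a median of 312 in the raised and 8.82 in the mycelium-transcribed gene models. In the mycelium libraries the raised gene models had medians of 0.16, 0.09, 0.00 and 0.15 in the same classes. The part of length in the levels of single gene models was not tested.

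**Figure D5:**
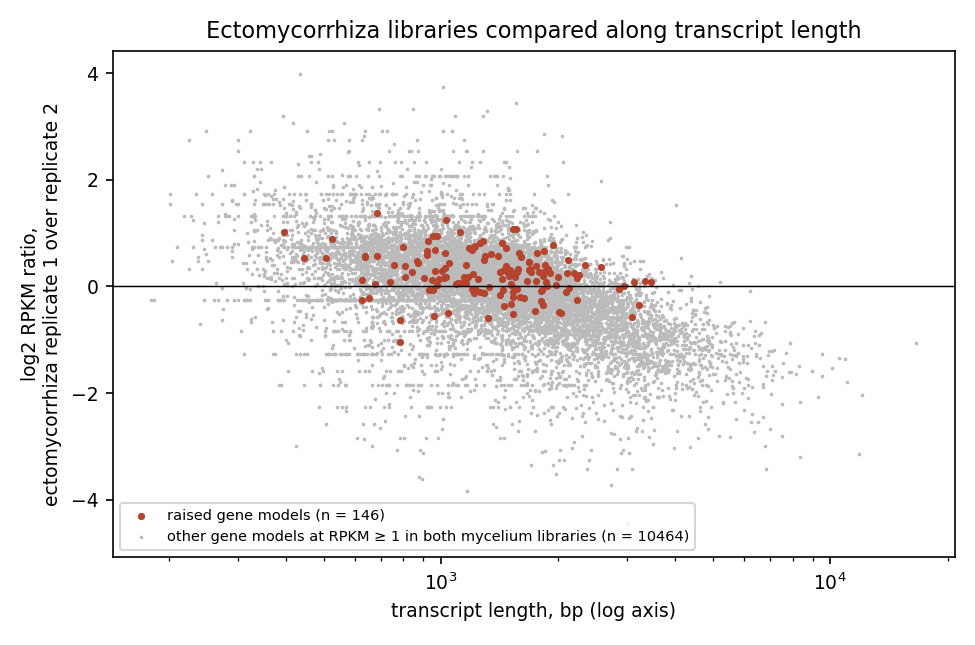
Log2 RPKM ratio of ectomycorrhiza replicate 1 over replicate 2 (vertical) against transcript length on a log axis, for the 146 raised gene models and the other mycelium-transcribed gene models with reads in both ectomycorrhiza libraries. The grey cloud bends below 0 among long transcripts. The raised gene models lie between -1.05 and 1.37, and their medians fall with length as well. Only 19 of them are of 2000 bp or more, against 2439 mycelium-transcribed gene models with reads in both.

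Raised gene models were mainly of middle length. Their transcripts had a median of 1425 bp (quartiles 1010 and 1755, range 396 to 3470), against a median of 1313 bp (quartiles 858 and 1889, range 171 to 16647) for the mycelium-transcribed gene models. The raised made up 0.313% of mycelium-transcribed gene models under 600 bp (4 of 1279), 1.29% at 600 to under 1200 bp (49 of 3789), 1.86% at 1200 to under 1800 bp (59 of 3164), 1.60% at 1800 to under 2400 bp (26 of 1625) and 0.502% at 2400 bp or more (8 of 1594). A smooth trend on length of each library's difference from the mean of the libraries was then removed. The shares were 0.829%, 1.60%, 1.80%, 1.23% and 0.627% after that. By the mirrored rule, with an RPKM of 1 or more in both ectomycorrhiza libraries and both mycelium libraries at least 10 times higher, 214 gene models were lower in ectomycorrhiza, with a median transcript of 964 bp. With that minimum in ectomycorrhiza, the balance turned with the scaling. It was 146 raised and 214 lowered on RPKM but 272 raised and 71 lowered with TMM-scaled library sizes. Without the minimum, lowered gene models outnumbered raised ones on both scales, at 886 on RPKM and 453 with TMM-scaled sizes. Of these, 450 and 292 had no read in 1 or both ectomycorrhiza libraries. These counts and shares are described without a test.

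Reads shared with other gene models hardly touched the set. In 134 of the 146 every read was unique, and in 4 the unique share was under 95%. The lowest share, 58.5%, belonged to a gene model of 507 bp with 1012 and 695 RPKM in ectomycorrhiza and 6.55 and 5.10 in mycelium, whose level is uncertain because reads could be split with a similar copy. The shortest transcript had a unique share of 94.2%. With RPKM from unique reads, 145 of the 146 met the rule.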

How the data were processed

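RNA sequencing of 2 ectomycorrhiza and 2 mycelium libraries was deposited as 1 table per library, with transcript length, for 15382 gene models of the Hebcy2 annotation (Joint Genome Institute). The authors deposited raw read counts, as unique and as total gene reads, per the file headers. The authors also deposited RPKM, per the file headers, a scaling of total gene reads by transcript length and library total alone, which the values follow to within 4.97e-06. For the aligner, the counter, strand use and the removal of pine reads, nothing is stated in the labels or headers, so overlapping and antisense models cannot be separated, and a pine read resembling a fungal transcript would be counted.

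Gene models were picked on the deposited RPKM. Total counts were fitted with edgeR 4.0.16 in R 4.3.3 (filterByExpr, TMM, robust quasi-likelihood test, group as the only term, Benjamini-Hochberg adjustment over 11471 gene models). The code was run on simulated counts with balanced changes in few gene models and no length trend. That run differs from these data and says nothing of the error rate here. DESeq2 1.42.0 and limma 3.58.1 were alternatives. The SE of an edgeR log2 fold change was derived, as its absolute value divided by the square root of its quasi-likelihood F statistic. The 2 identifiers printed are the gene model highest in ectomycorrhiza and the next by ratio; others are ranks, extremes and those nearest the limit. The gene models, tiers and length classes were chosen with earlier results of these data known. A length trend was fitted by lowess, per library, to log2 RPKM minus the gene model's mean over the 4 libraries. Mycelium-transcribed gene models with reads in all 4 libraries were used for it. An exact permutation test of 2 against 2 libraries gives a two-sided p of 0.333 at best, so none is reported. Binomial intervals (Clopper-Pearson) cover counting error only.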

Additional observations from a re-analysis of the deposited data

How the results depend on the processing

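Every alternative fit gave the 146 a median log2 fold change above 0, and each fit with 2 libraries a group called all of them higher. The rule used the same contrast, so nothing is read from this. Over all tested gene models, those fits called from 1276 (limma on log2(RPKM + 0.1)) to 3028 (DESeq2) higher. The number of gene models that meet the rule was 321 with a 5-fold and 85 with a 20-fold limit, 80 with a mycelium minimum of 5 RPKM, and 272 with TMM-scaled library sizes, of which 132 are among the 146; the other 14 fell under 1 RPKM in mycelium on that scale. Leaving out 1 library gave 165 to 198, and group means 210. The median log2 fold change of the 146 was 5.39 with upper-quartile scaling, 4.82 with total counts, 4.63 and 4.80 with limma on log2(RPKM + 1) and log2(RPKM + 0.1), and 5.62 to 6.001 without 1 library. Over all tested gene models, 2791 were called higher, against 1423 with total counts, 1389 and 1276 with limma on the same 2 RPKM scales, and 1690 to 3566 without 1 library; a lone library was assumed to vary like the other group. By summed RPKM the set held 0.235% of mycelium. With TMM-scaled sizes, replicate 1 minus replicate 2 had a median of 0.35 in ectomycorrhiza and -0.042 in mycelium on the log2 scale, beside 0.20 in ectomycorrhiza and 0.11 in mycelium on RPKM. The median transcript of the 146 was 112 bp longer than that of mycelium-transcribed gene models and 317.5 bp longer than that of all gene models. The shares that held in libraries not used for picking were 72.2% as given first, 81.8% picked in replicate 2, and 88.8% picked in ectomycorrhiza 2 and mycelium 1. The labels give no shared source for libraries of one number, and deviations from the group means correlated at -0.213 between them over the tested gene models. A replicate block left 2499 called higher, all 146 included; with the numbers crossed, chosen after the data were seen like the length trend, 3013 were, again with all 146. Depth limits 25 of the 146, whose counting intervals reach the 10-fold limit. Of 109 alternative values in all, 89 kept their direction and side of the threshold or moved by less than the limit set for them. Of the rest, 19 moved further and 1 reversed, the median between the mycelium libraries with TMM-scaled sizes. Among the 89 are every value of 31369 and 30166 and every count of the 146 called. The choice of gene models largely fixes these, so the 89 are no measure of stability. The 89 include log2 fold changes of 31369 of 10.35 with total counts and 10.19 with limma on log2(RPKM + 1), beside 11.32 with TMM. For 30166 the same 2 fits gave 8.88 and 8.66, beside 9.83. The limits were not alike, since the set's median of 6.001 without ectomycorrhiza replicate 2, beside 5.78, was among the 19. The cause of these shifts was not tested.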
